A study of Mus musculus with 24 samples.

Results

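The 9 genes described here are macrophage identity factors and surface markers: the receptor gene Csf1r, the transcription factor genes Spi1, Cebpa, Cebpb and Maf, and the marker genes Adgre1, Itgam, Cd14 and Cd68. They were chosen by symbol, and each has 1 row among the 35770 named genes of the table. Levels were measured by RNA sequencing in primary bone marrow-derived macrophages (BMDMs) from C57BL/6 mice, grown from marrow with M-CSF for 5 days, washed and kept for a further 48 h. The BMDMs received control media or conditioned media (CM) of LL2 cells, a Lewis lung carcinoma line from the mouse, in which KEAP1 or NRF2 had been knocked out or which were WT. Each medium was given with vehicle or 100 nM CDDO-Me, a synthetic triterpenoid that activates NRF2, for 24 h. This gave the 8 groups media/vehicle, WT CM/vehicle, KEAP1 KO CM/vehicle, NRF2 KO CM/vehicle, media/CDDO-Me, WT CM/CDDO-Me, KEAP1 KO CM/CDDO-Me and NRF2 KO CM/CDDO-Me, with 3 libraries each. The knockouts were made by CRISPR in the cancer cells only, so the BMDMs of all groups carried both genes. CM was 75% of the medium and had been conditioned for 48 h.

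PU.1, the product of Spi1, is the ETS family factor that opens macrophage enhancers, and it works with the C/EBP factors encoded by Cebpa and Cebpb. Maf encodes c-Maf, a factor that restrains self-renewal of mature macrophages. The product of Csf1r is the receptor for M-CSF and IL-34, which macrophages need for survival. Adgre1 encodes F4/80, an adhesion G protein-coupled receptor. Itgam encodes CD11b, which pairs with the beta chain encoded by Itgb2 to form complement receptor 3. Cd14 encodes the co-receptor that hands endotoxin to TLR4. Cd68 encodes a heavily glycosylated protein of late endosomes and lysosomes.

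The deposited values are labelled length-scaled TPM gene counts and sum to 1e6 in each library. They are read here as TPM, transcripts per 1e6 after correction for length. That sum does not settle whether gene length was scaled back in. Comparisons of level between different genes, percentiles included, rest on this reading. All 9 genes were abundant. Their means over the 24 libraries lay between the 87.8th percentile of the tested genes (Maf, 95.5 TPM) and the 99.4th (Cd68, 1538 TPM). Csf1r averaged 917 TPM, Adgre1 666 TPM and Spi1 357 TPM. The defining macrophage markers were therefore present in every library, with a lowest value of 17.3 TPM for any of the 9. In bulk RNA, fewer cells of a type and less RNA per cell cannot be told apart. Of 8 fibroblast markers, 8 were tested, and their summed level was 167 to 2030 TPM, most of it from Col1a1, Col1a2 and Col3a1. Neutrophil markers summed to between 10.9 and 72.8 TPM, of which S100a8 reached 63.9 TPM, and Ly6g had a median of 0.

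For the tests, TPM were scaled between libraries by trimmed means of M values (TMM), and log2 of the scaled TPM plus 1 was fitted with limma over all 24 libraries. Fold changes are on this log2 scale and carry a standard error (SE). Benjamini-Hochberg adjustment was made over the 13661 genes that had TPM above 1 in 3 or more libraries. A gene is called at an adjusted p under 0.05. Where groups are said not to overlap, this describes their 3 libraries each and is not a test. The share of all genes without overlap is not given here. Between KEAP1 KO CM/vehicle and WT CM/vehicle, 2 of the 9 genes did not overlap, although 0 of all tested genes were called. All 9 genes passed the filter on low values. The labels and methods do not say whether the 3 samples of a group came from separate mice, so the p-values measure only the spread between these samples.

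The replicate 3 libraries of NRF2 KO CM/vehicle and NRF2 KO CM/CDDO-Me stood apart from the others. They had 15702 and 16299 genes above 0, against 17817 to 18993 in the remaining 22 libraries. Among the 9 genes, Spi1 was listed at 1032 TPM in the first, against 329 and 299 TPM in replicates 1 and 2 of its group. Cebpa was at 17.3 TPM there, against 158 and 162 TPM. Cebpb was at 26.5 TPM, against 95.1 and 96.9 TPM. The NRF2 KO CM/CDDO-Me library deviated in the same directions, with Cebpa at 62.8 TPM against 291 and 284 TPM. Over all tested genes with a known transcript GC content (93.2%), the log2 deviation of replicate 3 from replicates 1 and 2 had a Spearman rho with GC content of -0.59 in NRF2 KO CM/vehicle and -0.49 in NRF2 KO CM/CDDO-Me. In the remaining 6 groups rho lay between -0.10 and 0.03. These correlations are across genes of the same libraries, and genes are not independent replicates. Because all groups share an estimate of the spread, both libraries also widened the SE in comparisons without them, that of Cebpa from 0.10 to 0.56 in every comparison of 2 groups with 3 typical libraries each. Results for the 9 genes are therefore given also without both libraries (22 libraries, 13562 genes tested), a choice made after the data were seen.

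**Figure D1:**
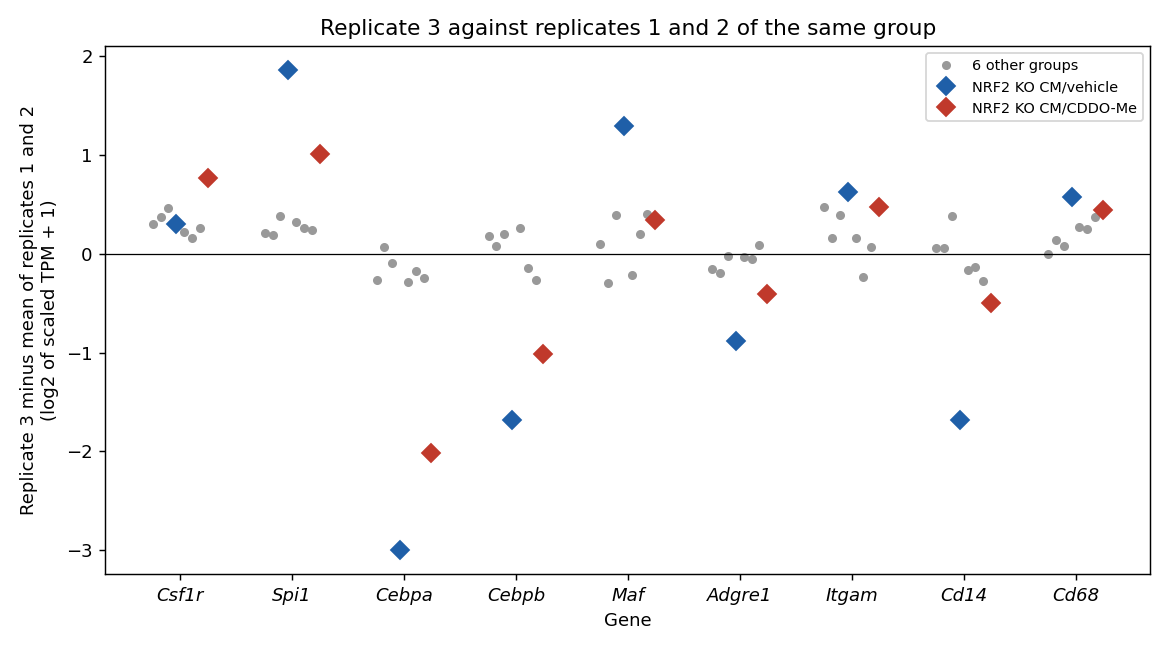
Log2 deviation of the replicate 3 library from the mean of replicates 1 and 2 of its own group for the 9 genes (y axis, log2 of scaled TPM plus 1). Diamonds mark the NRF2 KO CM groups and grey points the remaining 6 groups. Cebpa deviated by -3.00 and -2.02 and Spi1 by 1.86 and 1.01 in the NRF2 KO CM libraries.

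The promoters of Cd68 and Itgam are shown because these genes were called in opposite directions with CDDO-Me in NRF2 KO CM. With all 24 libraries Cd68 was lower and Itgam higher, and both calls were lost under some alternative settings, given below. The RefSeq table of promoters held 4 of the 9 genes. The 250 bases before the start site on build GRCm38.p6 are written 5′ to 3′ on the gene's strand, with motif matches in capitals.
Cd68, chr11:69666171-69666420 (-): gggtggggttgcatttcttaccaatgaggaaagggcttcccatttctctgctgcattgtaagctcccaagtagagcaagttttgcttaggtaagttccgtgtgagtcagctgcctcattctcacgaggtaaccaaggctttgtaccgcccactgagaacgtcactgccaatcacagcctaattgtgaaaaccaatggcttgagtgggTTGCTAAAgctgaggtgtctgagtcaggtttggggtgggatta
Itgam, chr7:128062390-128062639 (+): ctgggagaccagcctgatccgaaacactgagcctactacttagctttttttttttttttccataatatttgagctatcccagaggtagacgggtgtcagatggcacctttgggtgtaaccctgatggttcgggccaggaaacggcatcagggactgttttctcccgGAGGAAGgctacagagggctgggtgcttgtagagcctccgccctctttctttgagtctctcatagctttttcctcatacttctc
Searched on both strands were GAGGAAG (PU.1 core), TTGCNNAA (C/EBP), TGACNNNGC (the antioxidant response element that NRF2 binds) and TTCNNNGAA (the STAT site GAS). The Cd68 window held 1 C/EBP match, which began 43 bases before the start, and the Itgam window held 1 PU.1 core match, which began 84 bases before it. Of 32851 mouse promoter windows of this length, 9.56% held the C/EBP letters, 10.6% the PU.1 core, 10.2% the antioxidant response element and 7.02% the GAS. The windows of Cebpa and Cebpb held none of the 4 motifs.

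**Figure D2:**
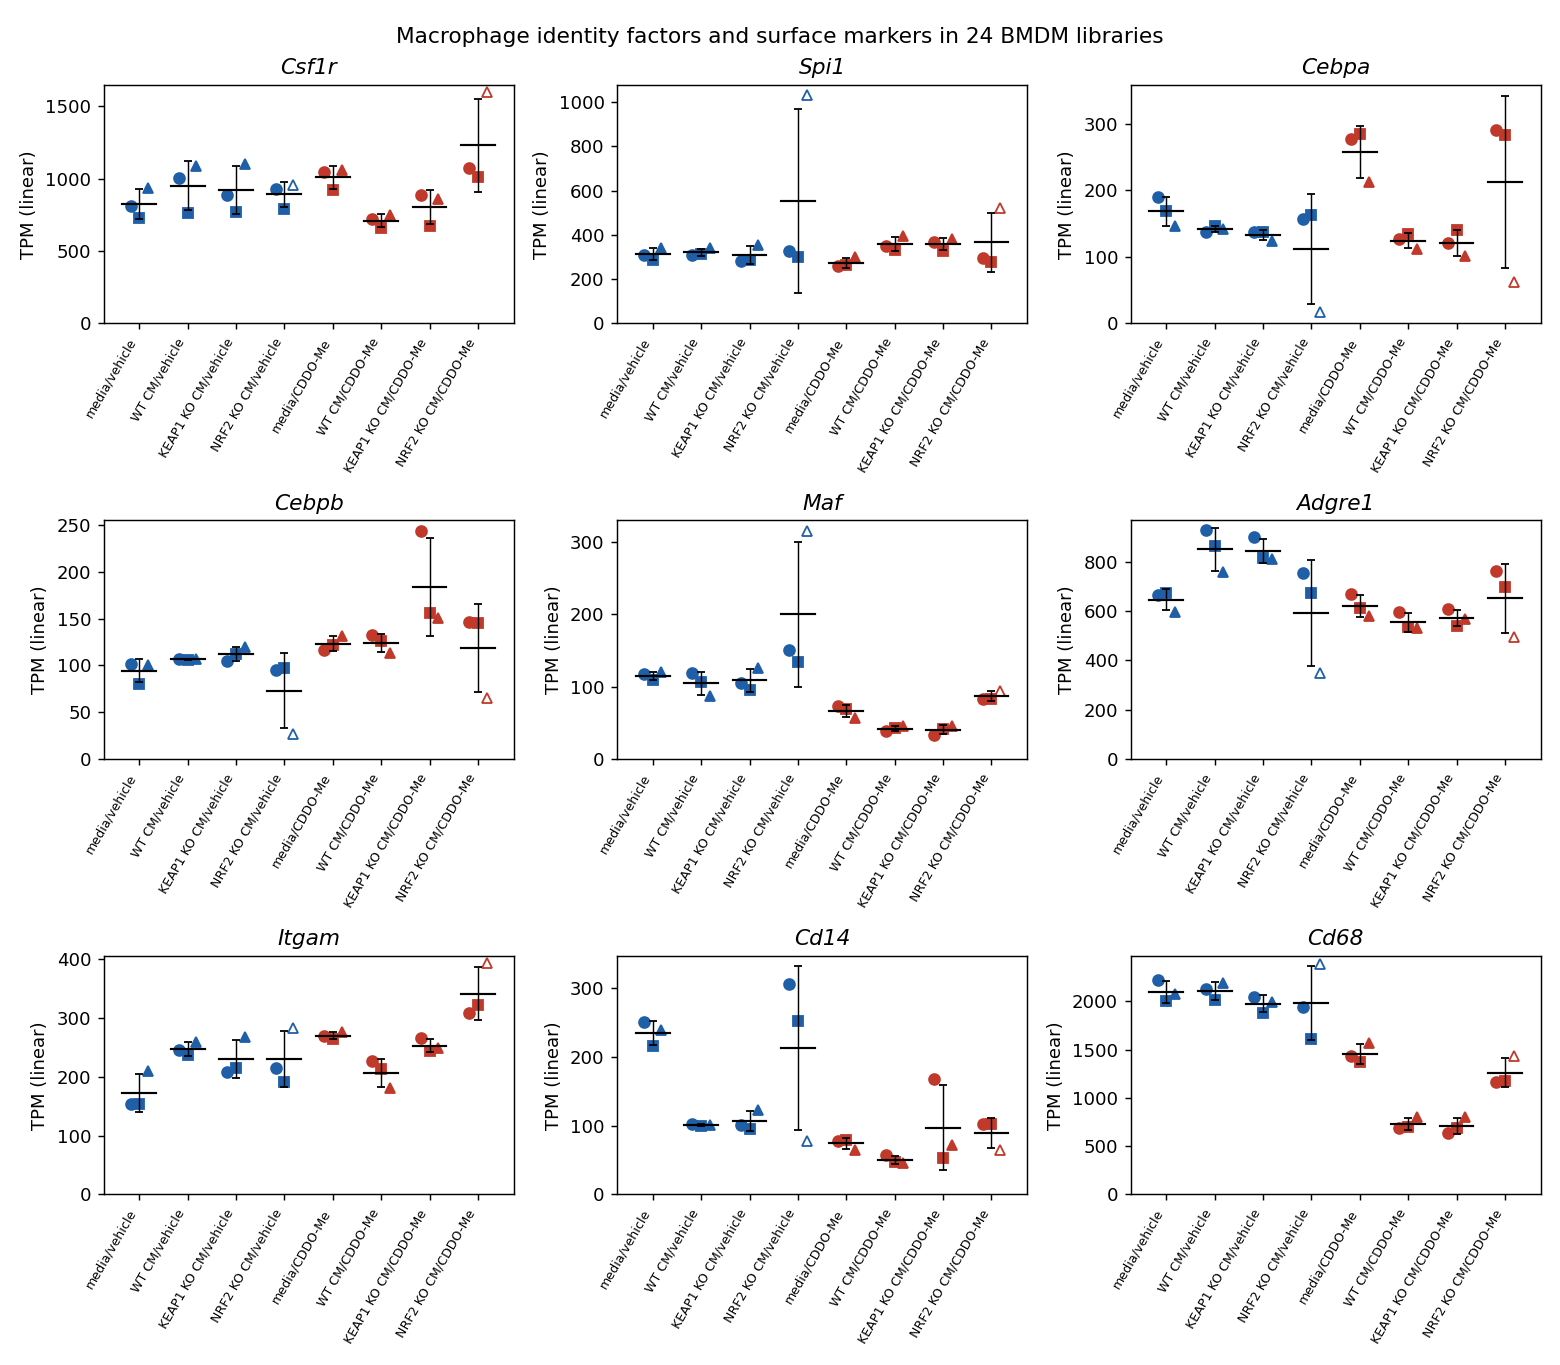
TPM of the 9 genes (y axis, linear, from 0) in the 8 groups (x axis). Circles, squares and triangles are replicates 1, 2 and 3, blue is vehicle and red is CDDO-Me, black lines are the mean and SD (n = 3), and open triangles are the NRF2 KO CM replicate 3 libraries. Cd68 fell from 2128, 2009 and 2191 TPM in WT CM/vehicle to 684, 694 and 798 TPM in WT CM/CDDO-Me.

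The first question was whether CM from cancer cells changed these genes in the absence of drug. Itgam was called higher with WT CM, close to the threshold, and this call was lost under some alternative settings, given below. A higher Adgre1 and a lower Cd14 passed the test only under alternative settings. These took out the spread from both NRF2 KO CM replicate 3 libraries, or that between replicate numbers. The receptor Csf1r, the lineage factor Spi1 and Cd68 passed none of these tests. Of the 9 genes, 1 was called between WT CM/vehicle and media/vehicle, Itgam, where 7.23% of all tested genes were called. Leaving out both NRF2 KO CM replicate 3 libraries, 3 were called (Adgre1, Itgam and Cd14), with a background of 18.8%. With the replicate number as a block, 3 were also called, with a background of 12.8%.

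Cd14 was at 250 TPM, 215 TPM and 238 TPM in media/vehicle and at 102 TPM, 99.1 TPM and 101 TPM in WT CM/vehicle. In KEAP1 KO CM/vehicle it was at 100.2 TPM, 95.5 TPM and 123 TPM. Neither CM group overlapped with media. The log2 fold change was -1.14 (SE 0.37) with each CM, with adjusted p = 0.0758 (WT CM) and 0.0698 (KEAP1 KO CM). Without both NRF2 KO CM replicate 3 libraries the same differences passed, with adjusted p = 0.00604 and 0.00559 (SE 0.27). With the replicate block, adjusted p was 0.0357 for WT CM. In NRF2 KO CM/vehicle, Cd14 was at 306 and 252 TPM in replicates 1 and 2 and at 77.9 TPM in replicate 3. In TPM, replicates 1 and 2 were both above every media library, while on the scaled log2 values replicate 2 (7.84) lay below media replicates 1 (7.91) and 3 (7.85). Replicate 3 was below all libraries of WT CM and KEAP1 KO CM with vehicle.

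Itgam was at 154 TPM, 153 TPM and 209.9 TPM in media/vehicle and at 245 TPM, 237 TPM and 259 TPM in WT CM/vehicle. The groups did not overlap, and the log2 fold change was 0.60 (SE 0.18, adjusted p = 0.0433). This call is close to the threshold and was lost with RLE scaling, without the filter, without the eBayes trend, and when any of media/vehicle replicates 1 and 2 or WT CM/vehicle replicates 1, 2 and 3 was left out. Its lowest log2 fold change among these was 0.52, without media/vehicle replicate 2. With KEAP1 KO CM the difference was 0.42 (SE 0.18, adjusted p = 0.182), and the media library at 209.9 TPM lay above the lowest KEAP1 KO CM library at 207 TPM. It passed without both NRF2 KO CM replicate 3 libraries (adjusted p = 0.0258).

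Adgre1 was at 667 TPM, 674 TPM and 598 TPM in media/vehicle and at 929 TPM, 865 TPM and 757 TPM in WT CM/vehicle. All 3 WT CM libraries were above all 3 media libraries, as were those of KEAP1 KO CM at 899, 815 and 812 TPM. The log2 fold change of 0.46 (SE 0.18) with WT CM had an adjusted p of 0.152, and without both NRF2 KO CM replicate 3 libraries 0.00185 (SE 0.09). With the replicate block it was 0.0465. For KEAP1 KO CM the difference was 0.38 (SE 0.18, adjusted p = 0.256), and its adjusted p was 0.00675 without both libraries.

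Between KEAP1 KO CM/vehicle and media/vehicle, 0 of the 9 genes were called by limma, 3 had an unadjusted p under 0.05, and 8.06% of all genes were called. When both NRF2 KO CM replicate 3 libraries were left out 4 were called, with a background of 21.0%. The fourth, beside Adgre1, Itgam and Cd14, was Cebpa, at 138, 137 and 124 TPM against 190, 169 and 147 TPM in media (log2 fold change -0.33, SE 0.10, adjusted p = 0.0203). Between KEAP1 KO CM/vehicle and WT CM/vehicle no gene of the 9 had an unadjusted p under 0.05, and 0 of all tested genes (0%) were called, with 350 at an unadjusted p under 0.05. The differences of the 9 genes there ranged from -0.18 (Itgam, SE 0.18) to 0.01 (Cebpb, SE 0.33).

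Between NRF2 KO CM/vehicle and media/vehicle, 0 of the 9 genes were called by limma, 2 had an unadjusted p under 0.05, and 0.00732% of all genes were called. Without replicate 3 of NRF2 KO CM the 9 differences lay between -0.29 (Cd68, SE 0.13) and 0.25 (Maf, SE 0.15), and again 0 were called (background 0.00737%). With it, that of Cebpa was -1.11 (SE 0.56) and that of Maf 0.68 (SE 0.25). WT CM was also set against NRF2 KO CM directly. Adgre1 was called (0.66 higher with WT CM, SE 0.18, adjusted p = 0.0233), where 10.6% of all genes were called. The value for Adgre1 was 0.37 (SE 0.10, adjusted p = 0.0235) without both replicate 3 libraries, and the NRF2 KO CM/vehicle replicate 3 value of 350 TPM lay below the 754 and 672 TPM of replicates 1 and 2. The call was lost without scaling (0.59), with the compared groups alone (0.66), and when WT CM/vehicle replicate 1 (0.61), WT CM/vehicle replicate 2 (0.66) or NRF2 KO CM/vehicle replicate 3 (0.37) was left out. Leaving out NRF2 KO CM/vehicle replicate 1 or 2 added calls for Maf (-0.92 and -1.04) and Cebpb (1.11 and 1.09). Without both replicate 3 libraries Cd14 was also called there, with a log2 difference of -1.34 (SE 0.30, adjusted p = 0.00592), with a background of 15.4%. All these comparisons share the media/vehicle, WT CM/vehicle or NRF2 KO CM/vehicle libraries.

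**Figure D3:**
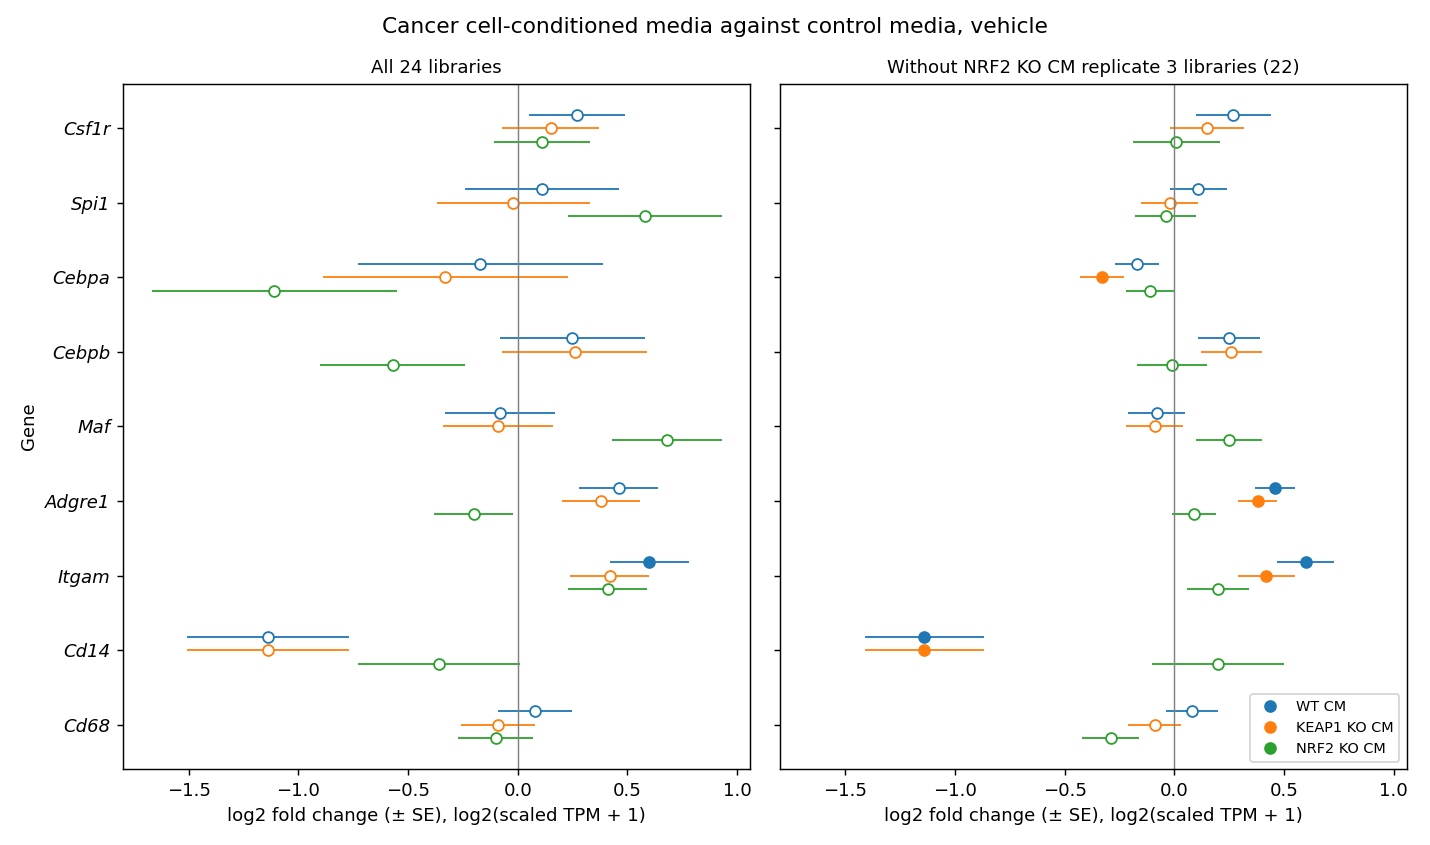
Log2 fold change (x axis, with SE) of the 9 genes (y axis) in each of the CM against control media, vehicle, with all 24 libraries (left) and without both NRF2 KO CM replicate 3 libraries (right). Filled points have an adjusted p under 0.05. Cd14 lay at -1.14 with WT CM and with KEAP1 KO CM in both panels, and the NRF2 KO CM value of Cebpa moved from -1.11 to -0.11.

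The second question was what CDDO-Me did in each medium. The drug lowered Cd68 and Maf in WT CM and KEAP1 KO CM, and lowered Cd14 in control media. Itgam was called higher in control media and in NRF2 KO CM, and Cd68 and Maf were called lower in NRF2 KO CM. Each of these Itgam calls and NRF2 KO CM calls was lost under some alternative settings, given below. Of the 9 genes, 2 were called in media (background 6.02%), 2 in WT CM (27.9%), 2 in KEAP1 KO CM (28.8%) and 3 in NRF2 KO CM (9.61%). Without both NRF2 KO CM replicate 3 libraries, these counts were 5 (14.9%), 4 (43.1%), 5 (44.8%) and 6 (9.55%). With the replicate block 4 were called in media (background 10.7%). The median log2 fold change of the 9 genes was -0.04 in media, -0.27 in WT CM, -0.01 in KEAP1 KO CM and 0.22 in NRF2 KO CM, where the median of all tested genes was between -0.02 and 0.02.

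Cd68 had the highest mean of the 9 genes over the 24 libraries, although in KEAP1 KO CM/CDDO-Me Csf1r was higher (806 against 708 TPM). In WT CM it was at 2128 TPM, 2009 TPM and 2191 TPM with vehicle and at 684 TPM, 694 TPM and 798 TPM with CDDO-Me. In KEAP1 KO CM it was at 2048, 1877 and 1992 TPM with vehicle and at 631, 693 and 799 TPM with CDDO-Me. The drug-treated libraries of these CM were below all other libraries of the series, and the log2 fold changes were -1.41 (SE 0.17, adjusted p = 1.43e-06) and -1.31 (SE 0.17, adjusted p = 3.58e-06). In media it was at 2221, 1999 and 2076 TPM with vehicle and at 1429.6, 1369.9 and 1565 TPM with CDDO-Me. These groups did not overlap either, and the difference of -0.51 (SE 0.17) had an adjusted p of 0.0813. It passed without both NRF2 KO CM replicate 3 libraries (adjusted p = 0.00541), with the replicate block (0.00462), without scaling (0.0138) and with the compared groups alone (0.0186). It fell by 0.61 (SE 0.17, adjusted p = 0.0229) in NRF2 KO CM, and this call was lost without NRF2 KO CM/vehicle replicate 3 (-0.42) and without NRF2 KO CM/CDDO-Me replicate 1 (-0.55) or 2 (-0.52). With the NRF2 KO CM groups fitted alone, 1.10% of all genes (139 of 12603) and none of the 9 were called there, with log2 fold changes of -0.62 for Cd68, -1.06 for Maf and 0.61 for Itgam. The fall of Cd68 was larger than in media, with a difference of -0.90 in WT CM (SE 0.23, adjusted p = 0.0114) and of -0.80 in KEAP1 KO CM (SE 0.23, adjusted p = 0.024), which tests the difference itself. The second value lost its call without the filter, and when media/vehicle replicate 2, KEAP1 KO CM/vehicle replicate 1 or 3, media/CDDO-Me replicate 3 or KEAP1 KO CM/CDDO-Me replicate 1 or 2 was left out, with -0.71 as the value nearest to 0. The effect in NRF2 KO CM differed from that in media by -0.10 (SE 0.23, adjusted p = 1).

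Maf was at 119 TPM, 106 TPM and 87.7 TPM in WT CM/vehicle and at 38.5 TPM, 42.4 TPM and 45.2 TPM in WT CM/CDDO-Me. In KEAP1 KO CM it was at 105, 95.9 and 126 TPM with vehicle and at 33.6, 41.4 and 46.0 TPM with the drug. No library overlapped, and Maf fell by 1.16 in WT CM (SE 0.25, adjusted p = 0.00111) and by 1.24 in KEAP1 KO CM (SE 0.25, adjusted p = 0.000519). It fell by 1.06 in NRF2 KO CM (SE 0.25, adjusted p = 0.00788), and without both replicate 3 libraries by 0.74 (SE 0.17, adjusted p = 0.00696), since replicate 3 was at 316 TPM with vehicle against 150.1 and 134 TPM. In media it was at 117 TPM, 109 TPM and 119.7 TPM with vehicle and at 73.8 TPM, 68.8 TPM and 56.7 TPM with the drug. That difference of -0.77 (SE 0.25, adjusted p = 0.0735) passed with the replicate block (adjusted p = 0.0322) and without both NRF2 KO CM replicate 3 libraries (adjusted p = 0.000675). The test for a larger effect in CM than in media gave -0.38 (SE 0.35, adjusted p = 0.592) in WT CM and -0.47 in KEAP1 KO CM (SE 0.35, adjusted p = 0.468), so a difference in the effect on Maf was not detected.

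Cd14 fell with CDDO-Me in media, from 250, 215 and 238 TPM to 77.9, 79.4 and 65.2 TPM. The groups did not overlap, and the log2 fold change was -1.63 (SE 0.37, adjusted p = 0.0102). It was at 102, 99.1 and 101 TPM in WT CM/vehicle and at 56.6, 47.1 and 45.7 TPM in WT CM/CDDO-Me, again without overlap (-0.88, SE 0.37, adjusted p = 0.0942, and 0.0137 without both NRF2 KO CM replicate 3 libraries). The 3 WT CM/CDDO-Me libraries held 3 of the 4 lowest Cd14 values of the series. In KEAP1 KO CM/CDDO-Me, replicate 1 was at 167 TPM and replicates 2 and 3 were at 52.7 and 71.7 TPM, so the group straddled the vehicle values of 100.2, 95.5 and 123 TPM. The difference was -0.13 (SE 0.37, adjusted p = 0.86), and it was -0.61 without KEAP1 KO CM/CDDO-Me replicate 1 (adjusted p = 0.248) and 0.26 without replicate 2 of that group, so its sign rests on single libraries. Drug-treated libraries of NRF2 KO CM were at 102, 102 and 64.4 TPM (-1.02, SE 0.37, adjusted p = 0.104), and without both replicate 3 libraries the difference was -1.41 (SE 0.33, adjusted p = 0.00989). The effect in KEAP1 KO CM against that in media differed by 1.50 (SE 0.53, adjusted p = 0.0642), or 1.02 (adjusted p = 0.184) without KEAP1 KO CM/CDDO-Me replicate 1. It was called without both NRF2 KO CM replicate 3 libraries (adjusted p = 0.00632), with the replicate block (0.0335), with the compared groups alone (0.033) and without KEAP1 KO CM/CDDO-Me replicate 2 (1.89, adjusted p = 0.016).

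Itgam rose with CDDO-Me in media, from 154, 153 and 209.9 TPM to 269.96, 263 and 276 TPM (0.68, SE 0.18, adjusted p = 0.024). All 3 drug-treated libraries were above all vehicle libraries. This call was lost when any of media/vehicle replicates 1 and 2 or media/CDDO-Me replicates 1, 2 and 3 was left out, with a lowest value of 0.60 without media/vehicle replicate 2. In WT CM it was at 227, 213 and 180.2 TPM with the drug against 245, 237 and 259 TPM with vehicle, a difference of -0.13 (SE 0.18, adjusted p = 0.677). The effect in WT CM was different from that in media by -0.81 (SE 0.25, adjusted p = 0.0322). This call was lost without the filter, and when media/vehicle replicate 1 or 2, WT CM/vehicle replicate 1 or 3, media/CDDO-Me replicate 1 or 3 or WT CM/CDDO-Me replicate 2 or 3 was left out, with -0.73 as the value nearest to 0. In NRF2 KO CM, Itgam was at 309, 322 and 393 TPM with the drug and rose by 0.61 (SE 0.18, adjusted p = 0.032), and these were the 3 highest Itgam values of the series. The call in NRF2 KO CM was lost without the filter, and when NRF2 KO CM/vehicle replicate 1 or 2 or NRF2 KO CM/CDDO-Me replicate 3 was left out (0.57, 0.45 and 0.46). In KEAP1 KO CM the difference was 0.32 (SE 0.18, adjusted p = 0.213).

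Adgre1 was at 598 TPM, 533 TPM and 529 TPM in WT CM/CDDO-Me and at 606, 539.8 and 566 TPM in KEAP1 KO CM/CDDO-Me. Each of these was below every vehicle library of the same medium. The differences of -0.48 (SE 0.18, adjusted p = 0.0519) and -0.39 (SE 0.18, adjusted p = 0.122) passed without both NRF2 KO CM replicate 3 libraries (adjusted p = 0.000363 and 0.00226, SE 0.09). In media the difference was -0.04 (SE 0.18), and it was -0.04 (SE 0.09, adjusted p = 0.858) without both libraries. The drug effect in WT CM against that in media differed by -0.45 (SE 0.26, adjusted p = 0.312), and by the same value with SE 0.13 and adjusted p = 0.0165 without both libraries.

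The C/EBP genes showed how far both replicate 3 libraries set the tests. Cebpa was at 277 TPM, 284 TPM and 212 TPM in media/CDDO-Me against 190 TPM, 169 TPM and 147 TPM in media/vehicle. The groups did not overlap, and the log2 fold change of 0.62 had an adjusted p of 0.759 with all libraries (SE 0.56) and of 0.000213 without both NRF2 KO CM replicate 3 libraries (SE 0.10). In NRF2 KO CM, replicates 1 and 2 were at 291 and 284 TPM with the drug against 158 and 162 TPM with vehicle (0.87, SE 0.12, adjusted p = 9.31e-05 without both replicate 3 libraries). With all libraries that difference was 1.19 (SE 0.56, adjusted p = 0.231). The differences in WT CM and KEAP1 KO CM were -0.06 and 0.02 (SE 0.10 without both libraries, adjusted p = 0.658 and 0.874). The difference in effect between WT CM and media was -0.69 (adjusted p = 0.000954 without both libraries, SE 0.14, and 0.702 with them, SE 0.80). For KEAP1 KO CM it was -0.60 (adjusted p = 0.0028 without them, SE 0.14, and 0.737 with them, SE 0.80).

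Cebpb was at 244 TPM, 156 TPM and 151 TPM in KEAP1 KO CM/CDDO-Me and at 104 TPM, 112 TPM and 119.6 TPM in KEAP1 KO CM/vehicle. All 3 drug-treated libraries were higher, and replicate 1, the library with the high Cd14, was the highest. The log2 fold change was 0.84 (SE 0.33, adjusted p = 0.066), 0.62 without KEAP1 KO CM/CDDO-Me replicate 1, and it passed without both NRF2 KO CM replicate 3 libraries (SE 0.14, adjusted p = 0.000106). In media the difference was 0.41 and in WT CM 0.35 (SE 0.33, adjusted p = 0.707 and 0.526), with no overlap between drug and vehicle in either medium. Without both libraries the adjusted p was 0.069 and 0.0627, so neither passed. In NRF2 KO CM, Cebpb was at 146, 146 and 64.7 TPM with the drug against 95.1, 96.9 and 26.5 TPM with vehicle (0.85, SE 0.33, adjusted p = 0.13). Without both replicate 3 libraries the difference was 0.63 (SE 0.18, adjusted p = 0.0301). It also passed without NRF2 KO CM/vehicle replicate 1 (1.14) or NRF2 KO CM/CDDO-Me replicate 3 (1.19).

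Csf1r and Spi1 passed few tests. Csf1r group means ranged from 710.2 ± 45.2 TPM (SD, n = 3) in WT CM/CDDO-Me to 1229 ± 322 TPM in NRF2 KO CM/CDDO-Me, a ratio of 1.73, and each group overlapped with the next in that order. The highest mean includes replicate 3 at 1599 TPM. Without both NRF2 KO CM replicate 3 libraries it was 1043 TPM in the same group, and the ratio was 1.47. Csf1r was called in none of the 13 comparisons with all 24 libraries or without both replicate 3 libraries. With the replicate block it was called in NRF2 KO CM, 0.47 higher with the drug (adjusted p = 0.00596), where 4 of the 9 genes were then called (background 14.5%). Spi1 was at 259 TPM, 262 TPM and 300.3 TPM in media/CDDO-Me, the lowest group mean, and at 367 TPM, 329 TPM and 383 TPM in KEAP1 KO CM/CDDO-Me. Against KEAP1 KO CM/vehicle Spi1 was 0.40 higher (SE 0.35, adjusted p = 0.466), with overlapping groups. Without both NRF2 KO CM replicate 3 libraries the SE was 0.13 and the adjusted p 0.0167. The highest mean, 553 ± 415 TPM in NRF2 KO CM/vehicle, rests on the 1032 TPM of replicate 3.

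Between KEAP1 KO CM/CDDO-Me and WT CM/CDDO-Me, 0 of the 9 genes were called by limma, 0 had an unadjusted p under 0.05, and 0.0439% of all genes were called. The differences ranged from -0.10 (Maf, SE 0.25) to 0.75 (Cd14, SE 0.37), and that of Cd14 was 0.27 without KEAP1 KO CM/CDDO-Me replicate 1. For the difference in drug effect, 2 of 9 genes were called for WT CM against media (background 15.3%), 1 of 9 for KEAP1 KO CM (14.8%), and 0 of 9 for NRF2 KO CM, with 0 of all genes called (0%) and 0 of the 9 at an unadjusted p under 0.05.

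**Figure D4:**
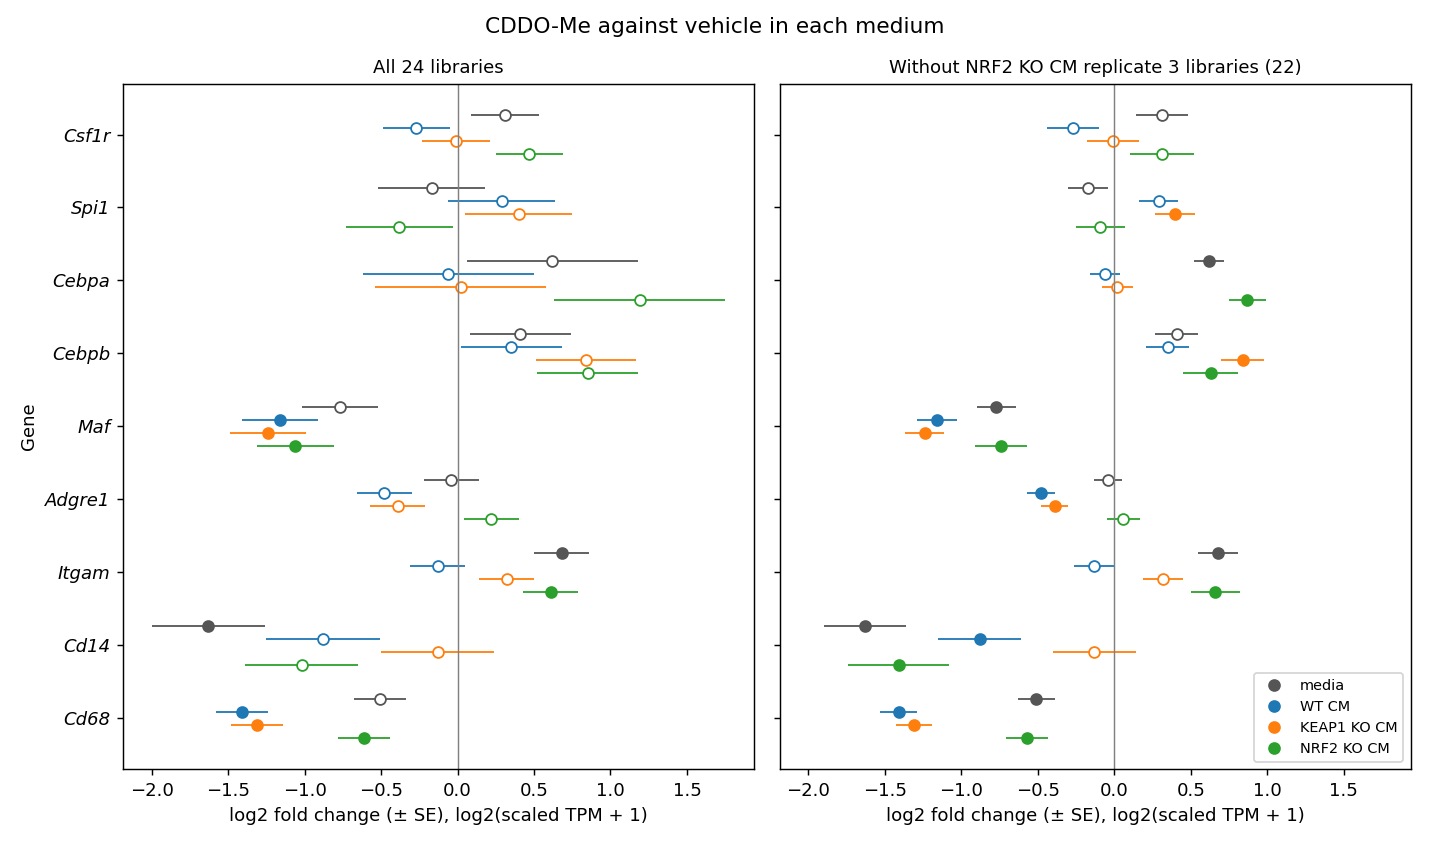
Log2 fold change with CDDO-Me against vehicle (x axis, with SE) of the 9 genes (y axis) in each medium, with all 24 libraries (left) and without both NRF2 KO CM replicate 3 libraries (right). Filled points have an adjusted p under 0.05. Cd68 lay at -1.41 in WT CM and -1.31 in KEAP1 KO CM, against -0.51 in media, and Cebpa was called on the right in media and NRF2 KO CM.

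In the order of group means, Cd68 fell into vehicle groups from 1972 to 2109 TPM, then media/CDDO-Me and NRF2 KO CM/CDDO-Me at 1455 and 1258 TPM, then KEAP1 KO CM/CDDO-Me and WT CM/CDDO-Me at 708 and 725 TPM. In TPM, neighbours within each of these 3 ranges overlapped, and neighbours between them did not. On the scaled log2 values, NRF2 KO CM/vehicle replicate 2 (10.51) lay below media/CDDO-Me replicate 3 (10.64) and NRF2 KO CM/CDDO-Me replicate 3 (10.56). The ratio between the highest and lowest group mean was 4.96 for Maf and 4.70 for Cd14, and without both NRF2 KO CM replicate 3 libraries 3.52 and 5.60. The highest Maf mean, 200 TPM in NRF2 KO CM/vehicle, rests on the 316 TPM of replicate 3. Over the 22 libraries without both NRF2 KO CM replicate 3 libraries, Maf and Cd68 had a Pearson r of 0.90 with each other, while Cebpb had -0.82 with Maf and -0.78 with Cd68. Spi1 and Cebpa had -0.64. The points share treatments, so these values describe the 8 groups as much as the libraries.

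By the same measure over all 24 libraries, the genes most like Cd68 were Naa50 (0.978), Galc (0.978) and Adgre5 (0.968), and those most like Maf were Gnpda1 (0.968), Septin8 (0.965) and Washc5 (0.948). For Itgam they were Kdm7a (0.898), Dhx40 (0.867) and Ednrb (0.866), and for Cd14 Neurl3 (0.888), Syk (0.866) and Pik3r5 (0.829). Without both NRF2 KO CM replicate 3 libraries, 2 of these 3 genes stayed for Maf, Itgam and Cd14 each, 1 of 3 for Cd68, and 0 of 3 for Csf1r, Spi1, Cebpa, Cebpb and Adgre1.

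The other genes of the same pathways are given as counts, to be read against the share of all tested genes that were called: 7.23% for WT CM against media, and with CDDO-Me 6.02% in media, 27.9% in WT CM, 28.8% in KEAP1 KO CM and 9.61% in NRF2 KO CM. Without both NRF2 KO CM replicate 3 libraries these shares were 18.8%, 14.9%, 43.1%, 44.8% and 9.55%. Of 14 tested transcription factors of the myeloid lineage, 4 were higher with WT CM than with media and 0 lower (5 and 2 without both libraries), with a median of 0.08 (all genes 0.01). Batf3, a dendritic cell factor, reached 53.4 ± 6.54 TPM where media had 9.48 ± 0.633 TPM (2.44, SE 0.30, adjusted p = 1.89e-05). Klf4, a monocyte factor, was at 37.0 ± 2.35 TPM against 9.90 ± 0.730 TPM (1.87, SE 0.19). With CDDO-Me in WT CM, 2 rose and 4 fell (2 and 7 without both libraries, median -0.36, all genes -0.01). Irf8, a factor of monocytes and interferon responses, rose from 99.7 ± 9.90 TPM to 471 ± 24.9 TPM in WT CM (2.36, SE 0.21, adjusted p = 3.27e-08) and by 2.22 (SE 0.21) in KEAP1 KO CM. In NRF2 KO CM, 1 rose and 1 fell with or without both libraries, and in media 0 of 14 were called, against 1 higher and 1 lower without both libraries.

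Of 8 tested C/EBP and Maf relatives, 2 rose and 2 fell with CDDO-Me in WT CM, and 3 rose and 2 fell in KEAP1 KO CM (medians -0.06 and 0.03). Leaving out both NRF2 KO CM replicate 3 libraries, 3 rose and 2 fell in each. The small Maf genes, whose products pair with NRF2 on DNA, were among those that rose. Mafk rose by 0.96 in WT CM (SE 0.18, adjusted p = 0.000252) and by 1.07 in KEAP1 KO CM (SE 0.18, adjusted p = 7.62e-05), and Maff by 0.93 and 1.51 (SE 0.31). Cebpd rose in NRF2 KO CM, from 8.99 ± 4.17 TPM to 21.7 ± 0.953 TPM (1.32, SE 0.25).

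Among 15 tested genes of CSF receptors, ligands and signalling, 5 rose and 1 fell with the drug in WT CM, and 5 rose and 0 fell in KEAP1 KO CM (medians 0.19 and 0.17). Without both libraries, 7 rose and 2 fell in WT CM, and 7 rose and 0 fell in KEAP1 KO CM. Ptpn6, which encodes the phosphatase SHP-1, rose from 148 ± 13.2 TPM to 547 ± 101 TPM in WT CM (1.99, SE 0.14, adjusted p = 1.04e-09), where Csf1r differed by -0.27 (SE 0.22, adjusted p = 0.411). Pik3cd, a catalytic subunit of PI3 kinase, rose by 1.41 (SE 0.18). Without drug, Ptpn6 fell with WT CM by 0.57 (SE 0.14) and Dok2, an adaptor, rose by 1.36 (SE 0.29).

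Of 13 integrin and adhesion receptor genes, 4 rose and 4 fell with CDDO-Me in WT CM, 4 rose and 5 fell in KEAP1 KO CM, 2 rose and 1 fell in media, and 2 rose and 2 fell in NRF2 KO CM. Without both libraries the number that rose was the same in each medium, and 6, 6, 3 and 4 fell. Itgal, which encodes the alpha chain CD11a of LFA-1, rose from 3.02 ± 1.26 TPM to 192 ± 15.8 TPM in WT CM (5.76, SE 0.29, adjusted p = 8.8e-12) and by 2.53 (SE 0.29) in media. Itgax, which encodes CD11c, fell in WT CM from 369 ± 43.0 TPM to 91.7 ± 13.2 TPM (-1.87, SE 0.19). The alpha chains that pair with Itgb2 thus differed in WT CM, with Itgal higher, Itgax lower and Itgam at -0.13. Itgb2 itself rose with the drug in media from 702 ± 77.2 TPM to 1206.5 ± 75.1 TPM (0.80, SE 0.11, adjusted p = 7.57e-05). Adgre5, the relative of Adgre1 that encodes CD97, fell by 1.05 in media (SE 0.18) and by 2.44 in WT CM (SE 0.18).

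Of 12 genes of endotoxin sensing, 1 fell and 0 rose with CDDO-Me in media, 3 rose and 2 fell in WT CM, 4 rose and 1 fell in KEAP1 KO CM, and 2 fell in NRF2 KO CM. Without both libraries, 4 fell and 0 rose in media, 4 rose and 2 fell in WT CM, 5 rose and 2 fell in KEAP1 KO CM, and 2 fell in NRF2 KO CM. Tlr4, the receptor that CD14 serves, fell by 0.76 in WT CM (SE 0.13, adjusted p = 0.000157) and by 0.72 in KEAP1 KO CM (SE 0.13). Cd180, which encodes a TLR4 relative that binds MD-1, fell in media from 195 ± 8.76 TPM to 112 ± 6.03 TPM (-0.78, SE 0.20) and rose in WT CM from 88.3 ± 2.98 TPM to 381 ± 49.4 TPM (2.22, SE 0.20). Ly86, which encodes MD-1, rose by 1.55 in WT CM (SE 0.22) and fell by 0.72 in NRF2 KO CM (SE 0.22, adjusted p = 0.0477).

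Of 8 tested lysosomal membrane genes beside Cd68, 3 rose and 2 fell in WT CM and in KEAP1 KO CM with CDDO-Me (medians 0.26 and 0.33), against 4 and 3 in each without both libraries. Lamp1 fell with Cd68, from 2091 ± 125 TPM to 1185 ± 68.7 TPM in WT CM (-0.69, SE 0.16, adjusted p = 0.00196). Slc11a1, a metal transporter of the phagosome, rose from 239 ± 20.9 TPM to 1115 ± 106 TPM (2.35, SE 0.21, adjusted p = 3.23e-08), and by 0.94 in media (SE 0.21). Of 11 tested other macrophage surface markers, 4 rose and 4 fell with the drug in both of these CM, and 0 rose and 3 fell in media. Without both libraries, 0 rose and 6 fell in media, and the counts in both CM were the same. Fcgr1, which encodes the high-affinity IgG receptor CD64, fell in media from 84.5 ± 8.48 TPM to 36.3 ± 2.18 TPM (-1.17, SE 0.16) and rose in WT CM from 50.5 ± 1.27 TPM to 479 ± 27.2 TPM (3.35, SE 0.16, adjusted p = 4.38e-12). Siglec1, a sialic acid receptor, fell in WT CM from 30.8 ± 3.95 TPM to 7.38 ± 1.43 TPM (-1.81, SE 0.17).

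Some genes listed as markers of other cell types differed between these groups. Summed fibroblast markers were at 528 to 1105 TPM in WT CM/vehicle and at 206 to 580.3 TPM in WT CM/CDDO-Me, and at 753 to 1449 TPM and 167 to 782 TPM in KEAP1 KO CM. The summed ranges overlapped between drug and vehicle in both CM. Of the 8 fibroblast genes, 1 (Pdgfra) fell with the drug in each of these CM, where 27.9% and 28.8% of all genes were called. Without both NRF2 KO CM replicate 3 libraries 2 fell in WT CM and 1 in KEAP1 KO CM, against 43.1% and 44.8%. The median log2 fold change of the 8 was -0.80 and -0.85 (all genes -0.01 and -0.02). Summed neutrophil markers were at 14.0 to 25.7 TPM in media/vehicle and at 31.0 to 48.2 TPM in media/CDDO-Me. The ranges were 10.9 to 34.2 TPM and 33.0 to 57.4 TPM in WT CM, which overlapped, 15.4 to 24.4 TPM and 64.7 to 72.8 TPM in KEAP1 KO CM, and 13.4 to 27.3 TPM and 32.9 to 64.2 TPM in NRF2 KO CM. Of 4 tested neutrophil markers, 1 (S100a8) was called in WT CM, KEAP1 KO CM (2.54, SE 0.41) and NRF2 KO CM, and 0 in media. The shares of all genes called there were 27.9%, 28.8%, 9.61% and 6.02%. With vehicle, summed T, B and NK cell markers were at 12.6 to 15.2 TPM in media, 6.30 to 6.85 TPM in WT CM and 5.55 to 7.23 TPM in KEAP1 KO CM. Their 1 tested gene, Cd4, was lower with WT CM (-1.02, SE 0.16), with KEAP1 KO CM (-1.16) and with CDDO-Me in media (-1.12) and in NRF2 KO CM (-1.17). Every other gene of that list had a median of at most 0.421 TPM (Cd8a), so the sum was mainly Cd4. Summed epithelial markers were at 0.0213 to 0.0899 TPM in media/vehicle, 3.11 to 4.29 TPM in WT CM/vehicle and 4.69 to 7.23 TPM in KEAP1 KO CM/vehicle. Their 1 tested gene, Cdh1, was higher with WT CM (2.12, SE 0.12) and KEAP1 KO CM (2.39) and lower with CDDO-Me in these CM (-2.16 and -2.40). Cdh1 reached at most 5.19 TPM in any library. Epcam, Krt8 and Krt18 had highest values of 0.272, 1.01 and 1.70 TPM and medians of 0, 0.00724 and 0.0909 TPM. Of 3 tested dendritic cell markers, Cd209a was higher with WT CM (1.88, SE 0.17) and KEAP1 KO CM (1.47), while with CDDO-Me it was lower in these CM (-2.18 and -1.76). Xcr1, also a dendritic cell marker, was higher there with the drug (2.33 and 1.60). Their part in the changes of the 9 genes was not tested.

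On GRCm39, the build of the authors, Cd68 lies on chromosome 11 from 69555037 to 69557067 (minus strand, 5 exons), Maf on chromosome 8 from 116409632 to 116434579 (minus strand, 3 exons), Itgam on chromosome 7 from 127661808 to 127717753 (plus strand, 29 exons) and Cebpa on chromosome 7 from 34818718 to 34821353 (plus strand, 1 exon). Values are for whole genes over all their transcripts. Annotated long non-coding RNAs lie on the opposite strand of Spi1, Cebpa, Maf and Cd68, and the protein-coding genes Peds1 and Hmgxb3 overlap Cebpb and Csf1r from the opposite strand. Gm49368 overlaps Itgam on the same strand. Whether reads were assigned with regard to strand is not given in the sources used here, so reads of such overlaps may be shared. Adgre1 and Cd14 have no overlapping gene.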

How the data were processed

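Poly-A RNA from 24 BMDM samples was sequenced by Novogene as paired reads. The authors quantified transcripts with Kallisto on GRCm39 and deposited TPM per gene, with no read number. TPM sum to the same total in each library, so the number of reads behind a value cannot be read from the table, and no counting interval is given. A row without a gene name (0.0199% to 0.0635% of TPM) was left out. The 9 genes, the gene lists and the tests were chosen with earlier results of these data known.

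Here, TPM were scaled by TMM (trims of 30% on M and 5% on A, without weights), and log2(scaled TPM + 1) was fitted in 8 groups with limma 3.58.1 in R 4.3.3 (eBayes with trend, 16 residual degrees of freedom, two-sided, Benjamini-Hochberg). The fit was run on simulated data with planted changes. Their spread was independent between libraries, without outlying libraries or deviations shared by replicate number, so the run does not test either. Beside the 9 genes, up to 4 called genes per list and comparison, by absolute change and with a mean of at least 5 TPM in a group, could be named, and the text names part of them. A further gene that the rule selects is not reported here. Likeness was ranked among tested genes with a mean of at least 5 TPM. Marker lists of T, B and NK, dendritic, mast, erythroid and epithelial cells each summed to at most 16.7 TPM in every library. Alternatives were RLE scaling, no scaling, no filter, a pseudocount of 0.1, no trend, the compared groups alone, a replicate block, each library left out, and both NRF2 KO CM replicate 3 libraries left out. Same-numbered samples deviated together (every correlation over 0.1) in 5 of 13 comparisons, among them WT CM against media and CDDO-Me in media and in NRF2 KO CM, which the text also gives with the replicate block. Figures were drawn with matplotlib 3.10.9.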

Additional observations from a re-analysis of the deposited data

Results flagged for a closer look

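The effect of CDDO-Me was called different between media for Cd68 and Itgam, by a test of the difference itself in limma. For Cd68, the log2 effect of the drug was -1.41 in WT CM and -0.51 in media, a difference of -0.90 (SE 0.23, adjusted p = 0.0114). In KEAP1 KO CM it was -1.31, a difference of -0.80 (SE 0.23, adjusted p = 0.024). For Itgam, the effect was -0.13 in WT CM and 0.68 in media, a difference of -0.81 (SE 0.25, adjusted p = 0.0322). Both contrasts use the same media libraries. The Itgam call and the Cd68 call in KEAP1 KO CM were each lost without the filter and when any of several single libraries was left out. The Cd68 call in WT CM held under every alternative run.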

How the results depend on the processing

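The calls for Cd14 with CDDO-Me in media, for Maf and Cd68 with CDDO-Me in WT CM and KEAP1 KO CM, and for the difference in the Cd68 effect between WT CM and media held under every alternative run. No log2 fold change that was called changed direction. Of the 9 genes, the counts called with all libraries were, in the order WT CM, then KEAP1 KO CM, then NRF2 KO CM against media, WT CM against NRF2 KO CM, KEAP1 KO CM against WT CM, CDDO-Me in media, in WT CM, in KEAP1 KO CM, in NRF2 KO CM, KEAP1 KO CM against WT CM under CDDO-Me, and the differences in drug effect from media (WT CM, then KEAP1 KO CM, then NRF2 KO CM), 1, 0, 0, 1, 0, 2, 2, 2, 3, 0, 2, 1 and 0. With 1 library left out they ranged, in that order, from 0 to 1, 0 to 0, 0 to 0, 0 to 3, 0 to 0, 1 to 2, 2 to 2, 2 to 2, 2 to 4, 0 to 0, 1 to 2, 0 to 1 and 0 to 0. With the replicate block they were 3, 2, 0, 2, 0, 4, 3, 4, 4, 0, 3, 2 and 0. In the same order, the share of all tested genes called was 7.23%, 8.06%, 0.00732%, 10.6%, 0%, 6.02%, 27.9%, 28.8%, 9.61%, 0.0439%, 15.3%, 14.8% and 0% with all libraries, and 12.8%, 13.1%, 0.022%, 18.7%, 0.0146%, 10.7%, 33.7%, 35.3%, 14.5%, 0.271%, 21.2%, 21.5% and 0% with the block. In 8 of the 13 comparisons not every same-numbered pair had a correlation over 0.1, although the mean over same-numbered pairs was between 0.141 and 0.604 in all 13. The mean over differently numbered pairs was below 0. The correlated values are deviations from group means, which ties that mean to the same-numbered one, so it adds no separate evidence. Whether a number marks a shared source is not given in the labels. In those 8 comparisons the block added calls for Itgam and Cd14 (KEAP1 KO CM against media) and Maf (WT CM against NRF2 KO CM). It also added Adgre1 (CDDO-Me in WT CM and KEAP1 KO CM) and Cebpb (CDDO-Me in KEAP1 KO CM). For the difference in drug effect it added Csf1r in WT CM and Cd14 in KEAP1 KO CM.

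Without both NRF2 KO CM replicate 3 libraries the counts were 3, 4, 0, 2, 0, 5, 4, 5, 6, 0, 4, 4 and 0, and with the compared groups alone 3, 2, 0, 0, 0, 5, 5, 4, 0, 0, 5, 4 and 0. The shares of all tested genes were then 18.8%, 21.0%, 0.00737%, 15.4%, 0%, 14.9%, 43.1%, 44.8%, 9.55%, 0.369%, 28.3%, 29.1% and 0% without both libraries, and 16.7%, 17.9%, 0%, 1.35%, 0%, 13.0%, 40.5%, 37.8%, 1.10%, 0%, 27.7%, 26.1% and 0% with the compared groups alone. WT CM against media fell to 0 with RLE scaling, without the filter and without the trend. WT CM against NRF2 KO CM gave 2 with RLE scaling, and CDDO-Me in media gave 4 without scaling. Without the filter, the difference in drug effect gave 1 in WT CM and 0 in KEAP1 KO CM. The NRF2 KO CM calls for Maf, Itgam and Cd68 were lost with the compared groups alone, at -1.06, 0.61 and -0.62. The cause of these changes was not tested.

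Over all genes, 988 called for WT CM against media became 1743 with the replicate block, 2554 without both replicate 3 libraries and 2069 with the compared groups alone. For KEAP1 KO CM, 1101 became 1784, 2852 and 2237. For CDDO-Me in media, 822 became 1464, 2025 and 1629. For CDDO-Me in NRF2 KO CM, 1313 became 1986 with the block and 139 with the compared groups alone, and WT CM against NRF2 KO CM went from 1449 to 2550 and 168. Without both libraries, CDDO-Me gave 5839 in WT CM (from 3812) and 6075 in KEAP1 KO CM (from 3932), and the differences in drug effect 3832 (from 2092) and 3950 (from 2027), against 3629 and 3428 with the compared groups alone. KEAP1 KO CM against WT CM under CDDO-Me moved from 6 to between 0 and 50.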
